A study of Mus musculus with 11 samples.

Results

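Cells that carried yellow fluorescent protein (YFP), which marks the biliary lineage here, were compared with cells that did not carry it, both sorted from untreated mouse liver. The comparison takes the 2 arrays of untreated YFP+ cells (YFP+ UTR) and the 3 arrays of YFP- cells, 5 of the 11 samples of the series. The other 6 are YFP+ cells of mice on the CDE diet (3) and the DDC diet (3), and they appear below only as ranges. Livers were perfused with EGTA and collagenase, and what remained was digested again with pronase added. Non-parenchymal cells were then sorted by YFP, using a gate set on wild type mice and a live/dead stain. Total RNA was hybridised to Affymetrix mouse whole-transcript arrays. The labels call all 11 samples liver progenitor cells, although the YFP- cells carried endothelial and blood cell genes. The sources used here do not name the strain, the age, the allele or the driver of the label, or whether a sample pools animals. The protocol text speaks of mice on the DDC diet for every sample, and the group of an untreated sample was taken from its description. No label ties replicates to separate animals, and the p-values therefore reflect only how these samples vary, possibly for technical reasons.

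Cholangiocytes, the epithelial cells of bile ducts, line the tubes that carry bile out of the liver. They seal the lumen with tight junctions, sense flow with a primary cilium and modify bile by moving bicarbonate, chloride and water. The rest of the non-parenchymal fraction is a mixture: fenestrated sinusoidal endothelial cells, Kupffer cells (the resident macrophages), lymphocytes, other leukocytes and stellate cells and fibroblasts. A sort on a biliary label therefore sets a single epithelium against many cell types. In such bulk samples, fewer cells of a type and less RNA per cell cannot be told apart.

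All values are the deposited log2 values, 1 per gene and array, and differences are the mean of the YFP+ arrays minus the mean of the YFP- arrays, in log2 units ± SE of the fit. Of 23185 named genes, 931 (4.02%) passed limma at an adjusted p of 0.05, 529 (2.28%) higher and 402 (1.73%) lower in YFP+ cells. No gene passed when either YFP+ array or YFP- replicate 3 was left out, and the lowest adjusted p was then 0.0588 to 0.217, with 2620 to 4586 genes at an unadjusted p under 0.05. Without YFP- replicate 1, 2194 genes passed, and without YFP- replicate 2, 343. A fit that also took the spread of the diet samples (all 11 arrays) called 2412 genes higher (10.4%) and 1961 lower (8.46%), and these included 925 of the 931. Called, rose and fell below refer to the fit of 5 arrays unless the 11 arrays are named.

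Many genes separated the groups without passing that test, because the YFP- arrays varied. A gene is called separated below when both YFP+ arrays lay at least 1 log2 unit above, or below, all 3 YFP- arrays. This description, which has no test and was chosen after the values were seen, held for 891 genes above (3.84%) and 751 below (3.24%), and for 784 of the 931 called. The YFP+ arrays were close to each other (correlation across genes 0.987, a median SD per gene of 0.11), whereas the YFP- arrays had a median SD of 0.26. Genes are not independent replicates, so such correlations are descriptions. YFP- replicate 1 lay nearest to the YFP+ arrays (0.889 and 0.894), replicate 3 followed (0.833 with both) and replicate 2 lay farthest (0.809 and 0.811). The YFP+ mean lay at least 2 log2 units above replicate 1 for 447 genes (1.93%), above replicate 2 for 849 (3.66%) and above replicate 3 for 830 (3.58%). It lay at least 2 log2 units below them for 823 (3.55%), 1275 (5.5%) and 980 (4.23%) genes.

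The sorted fractions were first set against their defining markers. Sox9, a transcription factor of the biliary lineage, read 11.35 and 11.45 on the YFP+ arrays and 8.05, 5.00 and 5.40 on YFP- replicates 1, 2 and 3. Krt19, a keratin of the ducts, read 10.64 and 10.47 against 8.28, 4.64 and 4.65, and Epcam, an epithelial adhesion molecule, 10.52 and 10.52 against 8.92, 6.66 and 4.73. The groups did not overlap for any of these 3, which held for 9960 of all 23185 genes, and replicate 1 was the highest YFP- array each time. With that array in the group, the differences of 5.25 ± 0.995, 4.70 ± 1.25 and 3.75 ± 1.25 had adjusted p-values of 0.0641, 0.121 and 0.185 (limma, 5 arrays) and did not pass.

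Pecam1, an adhesion molecule of endothelium, read 4.90 and 5.21 on the YFP+ arrays and 11.85, 10.11 and 10.17 on the YFP- arrays. Ptprc, the pan-leukocyte antigen CD45, read 4.71 and 5.15 against 8.75, 11.34 and 10.75. Both fell in YFP+ cells, by 5.66 and 5.35, and both lay below the median of all genes on each YFP+ array (5.68 and 5.74). By these 5 markers the YFP+ cells were biliary, and endothelial and leukocyte genes were high on all YFP- arrays.

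**Figure D1:**
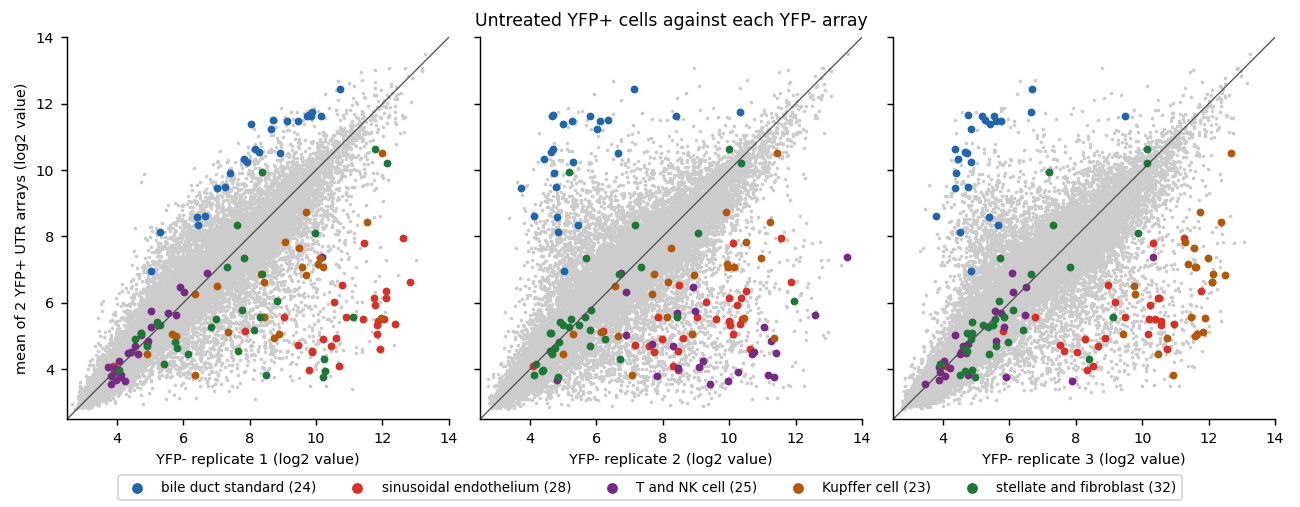
Each panel plots the mean of the 2 YFP+ UTR arrays (vertical axis, log2 value) against 1 YFP- array (horizontal axis, log2 value) for 23185 genes in grey, with 5 gene lists in colour and the line of equal values. Bile duct genes lie above the line in all panels and closest to it for replicate 1, T and NK cell genes lie far below it only for replicate 2, and Kupffer cell genes lie lowest for replicate 3.

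The 3 YFP- arrays held different cell mixtures, and each is described by the genes on which it stood farthest above the other 2. These genes were chosen for that difference, so the values are descriptions. On YFP- replicate 1 they were matrix and fibroblast genes together with genes of the duct. Lum, a collagen-binding proteoglycan, read 10.21 there against 4.84 and 4.97 on replicates 2 and 3, and Mgp, an inhibitor of calcification made by vessels and fibroblasts, 12.47 against 7.69 and 7.24. Dpt, Fmod, Mfap4, Itgbl1 and Sparcl1, also matrix or matrix-associated genes, showed the same order, as did the complement gene C7, the chemokine gene Ccl19 and the lymphatic growth factor gene Vegfd. On the YFP+ arrays all of these lay far below replicate 1: Lum read 3.68 and 3.83, and Mgp 6.97 and 6.73.

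Dsg2, a desmosomal cadherin, and Fmo2, a flavin monooxygenase, also marked replicate 1, but these were high on the YFP+ arrays too. Dsg2 read 11.72 and 11.77 on the YFP+ arrays and 9.43, 4.86 and 4.98 on the YFP- arrays, and Fmo2 10.98 and 11.22 against 10.23, 4.26 and 4.39. Of the 12 genes, replicate 1 thus shared these 2 with the YFP+ arrays.

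The same array read highest among the YFP- arrays for 3 further genes of endothelium. The sinusoidal endothelial list also had its lowest median against this array (-5.70), so larger vessels are not told apart from more endothelium. Vwf, the clotting factor stored by endothelium outside the sinusoids, read 8.33 on replicate 1 against 5.24 and 5.27 on replicates 2 and 3, and 5.14 and 5.18 on the YFP+ arrays. Rspo3, a Wnt amplifier of central vein endothelium, read 10.005 against 6.01 and 6.18, and Wnt2, a Wnt ligand of liver endothelium, 7.70 against 4.69 and 5.78. These 3 were picked after their values were seen from the list of 23 vascular signals. That list had a median difference of 0.11, with 1 member called higher and 2 lower (2.28% and 1.73% of all genes): Bmp2, an endothelial signal for iron control, fell by 4.68 and Lfng, a Notch modifier, by 2.56, while Pdgfb, which recruits mural cells, rose by 1.18. Against replicate 1 alone the median of the list was -1.22.

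YFP- replicate 2 stood apart by lymphocyte genes. Il2rb, a subunit of the receptors for interleukins of T and NK cells, read 11.40 there against 4.35 and 4.69, Cd3g of the T cell receptor complex 11.18 against 4.12 and 4.75, and Gzmb, a granzyme, 10.27 against 3.91 on both other arrays. Cd79a, part of the B cell receptor, read 10.11 against 4.18 and 4.24. Klrd1, Nkg7, Cd7, Cd2, Cd3e, P2ry10, Gimap3 and Gimap7 had the same order. On the YFP+ arrays all 12 lay far below replicate 2, close to or below their values on replicates 1 and 3. Over the list of 25 T and NK cell genes the YFP+ mean was lower than replicate 2 by a median of 5.02, and its median difference from replicates 1 and 3 was 0.09 and -0.06. None of these 25 genes was called in either direction, where 2.28% of all genes were called higher and 1.73% lower. In the fit of 11 arrays 1 was called lower, under the 8.46% of all genes.

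YFP- replicate 3 stood apart by genes of resident macrophages. Cd163, the haemoglobin scavenger receptor, read 10.47 there against 4.90 and 5.00 on replicates 1 and 2, Timd4, a receptor for dying cells, 11.57 against 5.79 and 6.64, and Cd5l, a secreted macrophage protein, 11.84 against 7.35 and 6.14. Fcna, a ficolin of Kupffer cells, read 12.16 against 7.23 and 7.41. C6, Il10, Ms4a8a, Fabp7, Gbp2b, Chp2, Kcnj16 and Paqr9 had the same order. On the YFP+ arrays Cd163 read 4.49 and 4.45, below all 3 YFP- arrays. Against replicate 3 the Kupffer list of 23 genes had a median of -4.64, and against replicates 1 and 2 of -2.22 and -2.10.

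**Figure D2:**
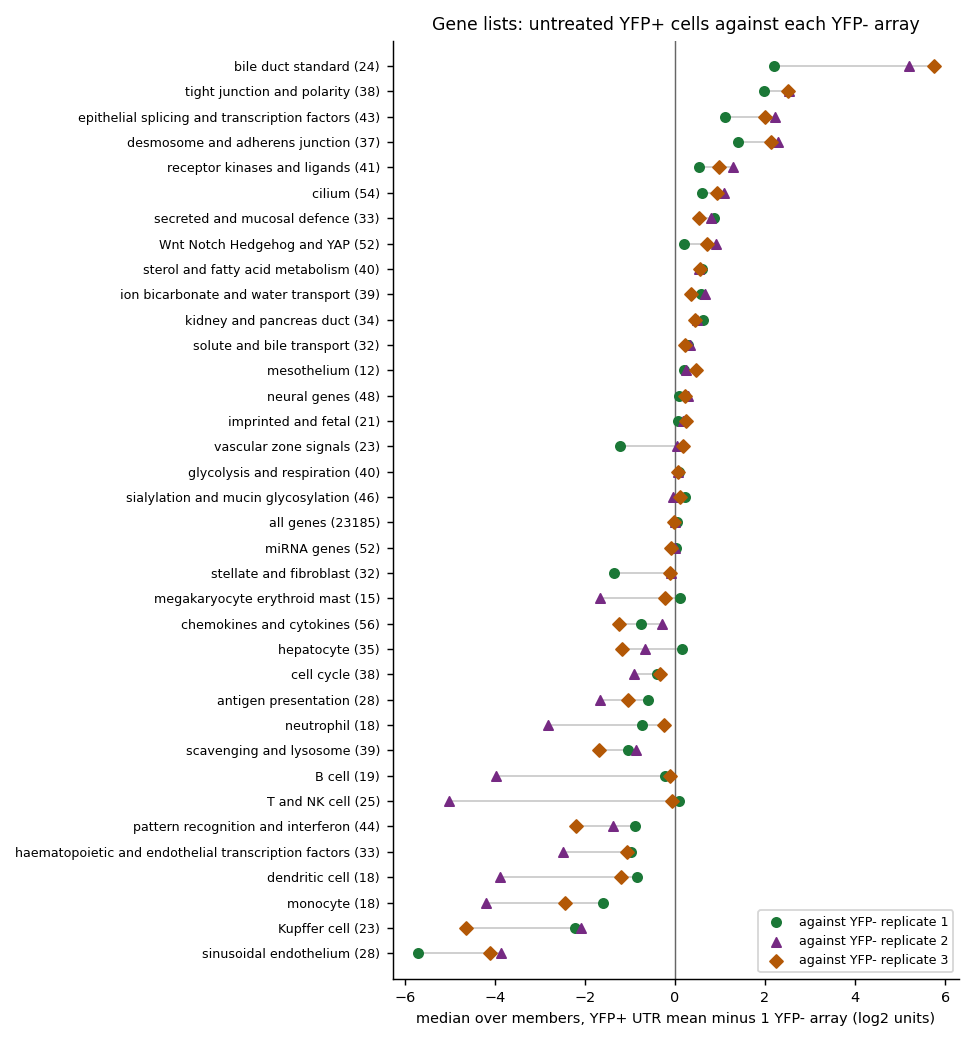
Each row is a gene list, with the number of measured members in brackets. The points give the median over the members of the YFP+ UTR mean minus 1 YFP- array (log2 units), with a circle for replicate 1, a triangle for replicate 2 and a diamond for replicate 3. Bile duct genes range from 2.19 against replicate 1 to 5.74 against replicate 3, while most lists of transport, lipid and sugar metabolism genes give nearly the same median against each array.

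Bile duct signal on YFP- replicate 1 had a measurable size. For each gene it was taken on the linear scale, as replicate 1 minus the mean of replicates 2 and 3, divided by the YFP+ mean minus that same mean. Over 22 standard bile duct genes at least 2 log2 units above replicates 2 and 3 the median was 17.4% of the YFP+ signal, with quartiles of 14.6 and 22.6%, from 4.97% (Elf3) to 33.7% (Tspan8). Genes of other epithelial lists gave medians of 11.7% (22 tight junction genes), 17.8% (18 desmosome and adherens junction genes) and 14.5% (21 epithelial transcription and splicing factors). Over all 556 genes separated upwards with such a difference the median was 14.6%, with quartiles of 9.2 and 20.7%, and the medians of these lists lie within those quartiles. Sox9 gave 8.57%. These shares take array signal as linear, and no number of cells follows from them.

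All 24 standard bile duct genes measured were separated upwards, yet only 3 were called, beside 2.28% of all genes. In the fit of 11 arrays 23 of the 24 were called higher. The 3 were Elf3, an epithelial transcription factor, with 7.79 and 8.50 against 5.29, 4.85 and 4.52, Sctr, the receptor for secretin, with 8.41 and 8.30 against 6.46, 5.45 and 5.67, and Slc10a2, the bile acid uptake carrier, with 6.91 and 6.998 against 5.02, 5.03 and 4.83. Their differences were smaller (Elf3 3.26 ± 0.33, Sctr 2.495 ± 0.34 and Slc10a2 1.99 ± 0.14) than that of Krt19, and YFP- replicate 1 stood less far above the other YFP- arrays. For 340 of the 529 genes called higher, replicate 1 lay within 0.5 log2 units of the mean of replicates 2 and 3. The test favours genes on which the YFP- arrays agree, so this count follows in part from the selection. Of the 891 genes separated upwards, replicate 1 was the highest YFP- array for 669, replicate 2 for 119 and replicate 3 for 103. Among the 751 separated downwards these counts were 242, 190 and 319. Neither the 340 nor the 669 was set against the same count over all genes, so both are descriptions.

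**Figure D3:**
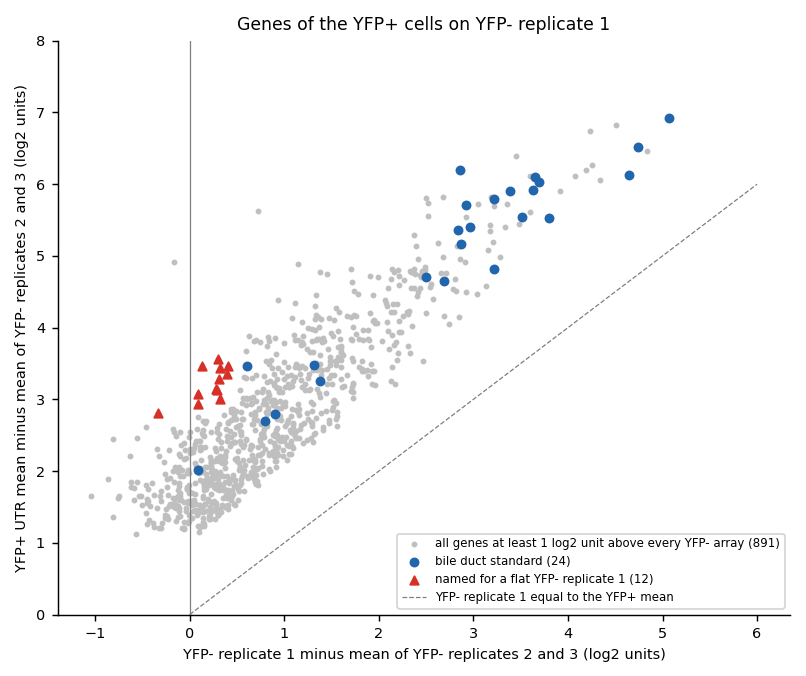
The horizontal axis gives YFP- replicate 1 minus the mean of YFP- replicates 2 and 3, the vertical axis the YFP+ UTR mean minus that mean (both log2 units), for the 891 genes at least 1 log2 unit above every YFP- array (grey), 24 standard bile duct genes (blue circles) and 12 genes named for a flat replicate 1 (red triangles). Most bile duct genes lie well to the right of 0, and the rule for the grey points leaves the band beside the dashed line empty.

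Away from the standard markers, the 20 largest rises among called genes covered membrane transport, adhesion and signalling. Cldn6, a claudin best known from embryonic epithelia, had the largest of the 20. It read 10.21 and 9.91 on the YFP+ arrays against 6.31, 5.43 and 4.89. This was a difference of 4.51 ± 0.45 (adjusted p = 0.0283, limma) or 22.8-fold. Some uncalled genes differed by more, among them Spink4 (5.39) and Dsg2 (5.32). Mia2, whose product helps load large cargo for export from the endoplasmic reticulum, read 8.71 and 9.16 against 5.54, 4.32 and 4.01. Eps8l2, an actin regulator, read 10.14 and 10.24 against 6.91, 5.12 and 5.78. For all 20 the lowest YFP+ array stood above the highest YFP- array by more than 2 log2 units.

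Several of the 20 were carriers of the apical or basal membrane. Slc2a2, the low-affinity glucose transporter GLUT2, read 9.83 and 10.68 against 7.02, 5.50 and 6.30, and rose by 3.98 ± 0.53. Slc4a4, a sodium bicarbonate cotransporter, read 9.42 and 9.39 against 6.27, 5.69 and 5.49. Slc34a2, a sodium phosphate cotransporter, read 9.20 and 8.82 against 5.76, 4.87 and 5.39, and Slc44a4, of the choline transporter-like family, 8.60 and 8.97 against 5.95, 4.37 and 4.85. The groups stood far apart for each of the 4, and YFP- replicate 1 was again the highest YFP- array for all of them.

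Others of the 20 act at junctions, in the cytoskeleton or in signalling. Myo5b, the motor of apical recycling, rose by 3.60, Cdhr5, a cadherin of brush borders, by 3.60, and Enah, an actin-polymerising protein, by 3.61. Ror1, a receptor for Wnt5a, rose by 3.64, Grb7, an adaptor of receptor tyrosine kinases, by 3.68, and Ccn1, a matricellular YAP target, by 4.08. Lamc3 and Egflam, both of the extracellular matrix, rose by 3.70 and 3.65, and Igsf11, an adhesion molecule, by 4.01. Myrf, a membrane-bound transcription factor, rose by 3.85, and Acsm3, an enzyme of medium-chain fatty acid activation, by 3.70. Cxcl5, a chemokine that attracts neutrophils, read 8.54 and 9.89 against 6.16, 5.22 and 4.93, and the YFP+ arrays differed more for it than for most of the 20.

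**Figure D4:**
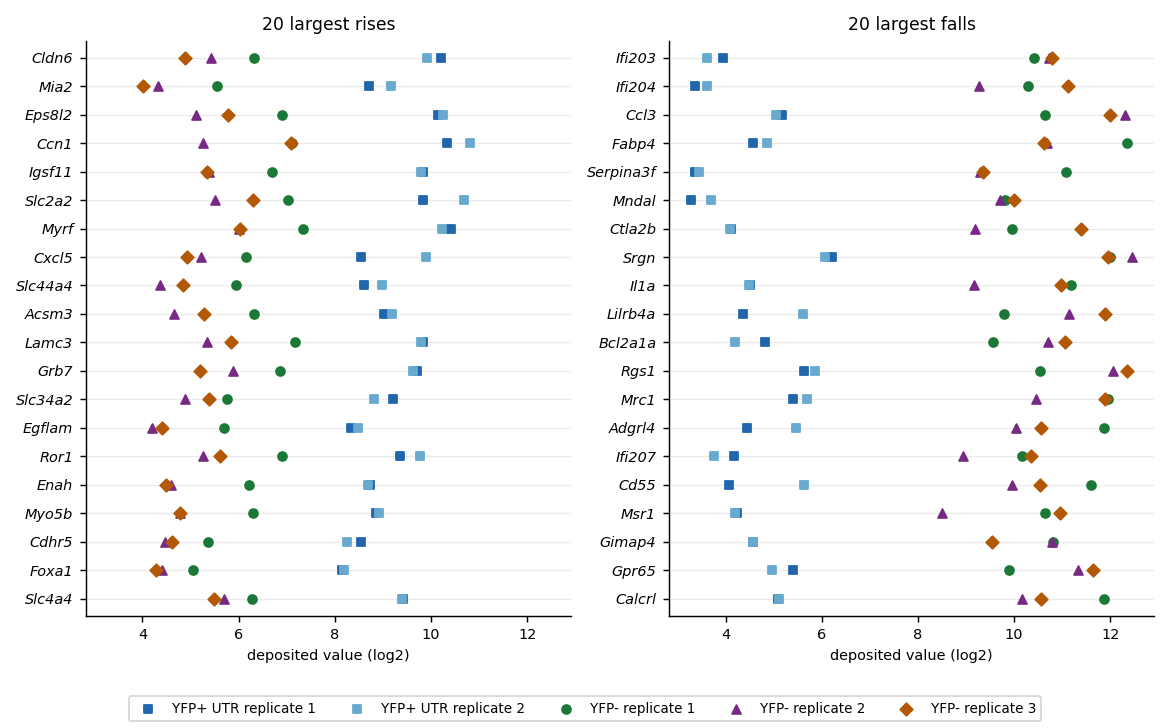
Deposited log2 values of the 20 largest rises (left) and 20 largest falls (right) among called genes outside the bile duct and sinusoidal lists, with squares for the 2 YFP+ UTR arrays and a circle, triangle and diamond for YFP- replicates 1, 2 and 3. No gene shown has overlapping groups, and replicate 1 is the highest or nearly highest YFP- array in the left panel.

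Another set of 12 genes rose in YFP+ cells while YFP- replicate 1 stood with the other YFP- arrays; they were chosen for that, and their share of YFP+ signal on replicate 1 had a median of 2.21%. Inhba, the activin A subunit, read 8.19 and 8.37 against 5.02, 4.77 and 4.66, a rise of 3.47 ± 0.17 (adjusted p = 0.0176). Gjb1, the gap junction protein connexin 32, read 8.72 and 9.17 against 5.99, 5.39 and 5.80, and Ppp1r1b, a phosphatase inhibitor, 9.15 and 9.95 against 6.41, 6.79 and 6.70. The YFP- arrays were close to each other for each of the 3, and all lay far below the YFP+ arrays. Parm1, Rnf208, Gal3st2b, Large2, Lratd2, Wfdc18, Sema4g, Cpn1 and Serpina10 rose by 2.89 to 3.42. Cpn1, a plasma carboxypeptidase subunit, and Serpina10, an inhibitor of clotting factors, are genes known from hepatocytes, as is Gjb1.

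Tight junction and polarity genes were the list with the most calls upwards, 15 of 38 against 2.28% of all genes, with 22 separated (3.84% of all genes) and a median difference of 2.32. None was called lower or separated downwards. After Cldn6 and Myo5b, the largest rises were Cxadr, a junctional adhesion protein and virus receptor, with 9.54 and 9.62 against 6.96, 6.17 and 5.39, Pard6b, a core polarity protein, with 9.41 and 9.27 against 6.62, 6.25 and 5.16, and Cldn8, with 7.67 and 8.28 against 5.34, 4.60 and 4.77. The list's median was nearly as large against replicate 1 (1.98) as against replicates 2 (2.53) and 3 (2.51). Tjp1, the scaffold ZO-1 that endothelium also has, was chosen after its values were seen: it read 10.38 and 10.21 against 10.79, 8.42 and 8.92, and its groups overlapped.

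Desmosome and adherens junction genes had a median difference of 1.70, with 18 of 37 separated upwards, beside 3.84% of all genes. Only 1 was called, a share near the 2.28% of all genes. That gene was Perp, a desmosomal tetraspan protein and p53 target, with 7.76 and 7.82 against 5.25, 5.56 and 4.94. In the fit of 11 arrays 25 of the 37 were called higher, beside 10.4% of all genes, and none lower. Over the list the mean level was 7.46 on replicate 1 against 6.13 and 6.24 on replicates 2 and 3, and 8.72 and 8.53 on the YFP+ arrays. Perp did not share that order of the YFP- arrays, and Dsg2 was named above for its height on replicate 1.

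Transcription and splicing factors of epithelia rose in 7 of 43 cases and fell in 1, beside 2.28% and 1.73% of all genes. Foxa1, a pioneer factor of the endoderm, read 8.15 and 8.18 against 5.05, 4.41 and 4.28 and rose by 3.59 ± 0.27, and its relative Foxa3 read 9.09 and 8.75 against 6.66, 5.58 and 5.58. Grhl2, a factor that maintains epithelial junction genes, read 8.38 and 8.89 against 5.89, 4.57 and 4.70. Hhex, a homeobox factor of liver and bile duct development that endothelium also expresses, read 11.13 and 11.23 against 9.01, 8.40 and 8.52. Esrp2, a splicing factor of epithelial isoforms, rose by 2.499 ± 0.30. The exception was Klf4, which fell by 1.59 ± 0.18.

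Other factors known from liver or ducts were separated but did not pass. Prox1 read 9.95 and 10.11 against 7.39, 4.08 and 4.34, Onecut1 9.94 and 10.55 against 7.94, 4.67 and 5.85, Sox4 9.69 and 9.46 against 7.32, 4.83 and 4.92, and Glis3 10.73 and 10.65 against 7.95, 6.04 and 5.06. Their adjusted p-values were 0.0919, 0.103, 0.0834 and 0.0724 (limma, 5 arrays), and 0.00323, 0.00433, 0.00258 and 0.00169 in the fit of 11 arrays. These 4 were chosen after their values were seen. Replicate 1 lay between the YFP+ arrays and the other YFP- arrays for each.

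Genes of the primary cilium, the antenna that senses bile flow, rose in 10 of 54 cases and fell in none, beside 2.28% and 1.73% of all genes. Tmem231, of the gate at the ciliary base, read 8.72 and 8.50 against 6.35, 6.37 and 5.76. Bbs1, of the complex that carries membrane proteins into cilia, read 8.15 and 7.78 against 5.93, 5.94 and 5.68, and Ift81 and Wdr35, of the intraflagellar transport trains, rose by 2.29 ± 0.37 and 2.42 ± 0.37. Smo, the Hedgehog transducer of the cilium, read 8.59 and 8.63 against 7.01, 6.66 and 6.33. The median over all 54 was 0.85, and 49 were positive. Foxj1, the factor of motile cilia, read 10.50 and 9.91 against 7.77, 5.83 and 5.04 and did not pass (adjusted p = 0.0817); it was chosen after its values were seen.

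Growth factor receptors were a mixed list, with 4 of 41 called higher (2.28% of all genes) and a median of 0.91. Erbb4, a neuregulin receptor, read 8.02 and 8.38 against 5.22, 3.95 and 4.81, and Erbb3, which also binds neuregulins, 7.93 and 8.18 against 5.22, 5.51 and 6.18. Fgfr4, the receptor for the bile acid signal FGF15, read 8.44 and 8.60 against 6.17, 4.82 and 4.90. Btc, a ligand of the EGF family, rose by 1.36 ± 0.22. Fgfr2 and Met, the receptor of hepatocyte growth factor, both chosen after their values were seen, differed by more (4.30 ± 0.91 and 3.86 ± 0.82), with replicate 1 at 7.43 and 7.29, and did not pass. The ligand of Met moved the other way: Hgf read 4.35 and 4.29 on the YFP+ arrays and 10.24, 6.72 and 8.40 on the YFP- arrays, without passing (adjusted p = 0.11).

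Wnt, Notch, Hedgehog and YAP genes rose in 4 of 52 cases (2.28% of all genes) and fell in none (1.73%). Besides Ror1 and Ccn1, these were Wnt4, a ligand of epithelial tubules, with 8.60 and 8.37 against 6.71, 5.71 and 5.53, and Fzd5, a Wnt receptor, with 7.88 and 7.69 against 6.70, 6.77 and 6.34. The median of the list was 0.66, and 0.21 against replicate 1 alone. Neural guidance and secretion genes had 4 of 48 called higher and 1 lower, the latter near the 1.73% of all genes. Celsr1 and Celsr2, planar polarity cadherins, Syt1, a calcium sensor of exocytosis, and Sema4g rose, while Nrp1, a co-receptor for semaphorins and VEGF that endothelium expresses, fell from 10.91, 9.34 and 9.90 to 5.81 and 6.29.

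Ion, bicarbonate and water transport genes gave 2 of 39 higher and 1 lower, beside 2.28% and 1.73% of all genes, and the latter is near that share. Besides Slc4a4, Kcnk1, a potassium channel, rose with 9.52 and 9.66 against 7.20, 6.06 and 5.81. Aqp1, a water channel known from both cholangiocytes and endothelium, fell: it read 6.16 and 6.51 on the YFP+ arrays and 11.79, 10.29 and 10.19 on the YFP- arrays, a difference of -4.42 ± 0.56. The calcium-activated chloride channel gene Ano1, chosen after its values were seen, read 9.40 and 9.65 against 6.91, 3.89 and 4.09 and did not pass (adjusted p = 0.086). Solute and bile carriers gave 4 of 32 higher, beside 2.28% of all genes, and none lower. The 4 were Slc2a2, Slc44a4, Slc34a2 and the glycine transporter gene Slc6a9, with 6.02 and 6.39 against 5.23, 5.07 and 5.04.

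Genes shared with the ducts of kidney and pancreas gave 4 of 34 higher (2.28% of all genes) and none lower, and 3 of the 4 encode membrane serine proteases. St14 (matriptase) read 10.14 and 10.04 against 7.03, 6.96 and 5.61, Prss8 (prostasin) 9.37 and 9.22 against 6.80, 5.42 and 5.49, and Tmprss2 8.45 and 9.22 against 6.55, 5.30 and 5.50. The other was Pax8, a nephric factor, with 5.97 and 5.65 against 4.62, 4.31 and 4.71. Its rise of 1.26 ± 0.20 was between values near the median of the arrays and values near their lower quartile.

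Secreted and mucosal defence genes had 1 of 33 called, Cxcl5, a share near the 2.28% of all genes. Spink4, a protease inhibitor of mucous epithelia, and Dmbt1, a scavenger glycoprotein of mucosal surfaces, had larger mean differences but disagreed between the YFP+ arrays. Spink4 read 7.91 and 11.37 against 4.73, 3.60 and 4.42, and Dmbt1 7.81 and 11.98 against 4.81, 4.77 and 5.18. Both YFP+ arrays lay above all YFP- arrays, with YFP+ replicate 2 far above replicate 1, and neither gene passed (adjusted p = 0.0719 and 0.107). Over all genes, YFP+ replicate 2 lay at least 2 log2 units above YFP+ replicate 1 for 34 and below it for 4. Spink4 and Dmbt1 were chosen after their values were seen.

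Genes of sterol and fatty acid metabolism rose in 4 of 40 cases and fell in 2, beside 2.28% and 1.73% of all genes. Those that rose belong to synthesis: Fdft1 (squalene synthase) read 10.17 and 10.08 against 7.89, 8.17 and 7.74, Sqle (squalene epoxidase) 9.81 and 9.98 against 7.96, 7.90 and 7.12, and Scd2 (a stearoyl-CoA desaturase) 10.28 and 10.38 against 8.01, 8.55 and 7.36. Srebf1, the factor that drives lipid synthesis, rose by 1.24 ± 0.15. Those that fell are known from endothelium and macrophages: Fabp4, a fatty acid carrier, read 4.58 and 4.86 against 12.35, 10.69 and 10.61, and Pparg, a lipid-sensing nuclear receptor, 5.30 and 5.83 against 7.45, 7.69 and 8.04. In the fit of 11 arrays 19 were called higher, beside 10.4% of all genes, and 4 lower, near the 8.46% of all genes.

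Sugar metabolism and glycosylation changed in few members. Of 40 glycolysis and respiration genes, 3 rose (2.28% of all genes) and none fell: Aldoc (an aldolase) by 2.47 ± 0.25, Pklr (a pyruvate kinase of liver and red cells) by 1.96 ± 0.19 and Gpd1 (glycerol phosphate dehydrogenase) by 1.49 ± 0.19. Of 46 glycosylation genes, 2 rose and 3 fell, where 2.28% and 1.73% of all genes did. Fut2, which makes the secretor antigens of mucosae, read 7.87 and 7.66 against 6.05, 5.10 and 5.69, and St6gal1, a sialyltransferase, rose by 1.23. Galnt1, B4galt1 and Fut8, broadly expressed glycosyltransferases, fell by 1.16, 1.41 and 1.41.

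Genes known from hepatocytes, the parenchymal cells that slow centrifugation sediments, differed by YFP- array. Of 35 listed, 2 rose and none fell, beside 2.28% and 1.73% of all genes, and 24 differences were negative with a median of -0.64. The median was 0.15 against replicate 1, -0.66 against replicate 2 and -1.18 against replicate 3. Ttr, the thyroxine carrier, read 12.87 and 13.02 on the YFP+ arrays and 11.35, 11.49 and 11.42 on the YFP- arrays, a rise of 1.52 ± 0.13 (adjusted p = 0.0239), and Tat, an amino acid catabolic enzyme, rose by 1.66 ± 0.20. Alb, chosen after its values were seen, read 12.34 and 12.45 on the YFP+ arrays against 10.61, 11.76 and 12.44 on YFP- replicates 1, 2 and 3, so that the groups overlapped.

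The YFP- arrays differed among themselves for 5 further genes known from hepatocytes, which were chosen after their values were seen and do not stand for the list. Mup3, a major urinary protein, read 3.47 and 3.55 on the YFP+ arrays and 4.38 on YFP- replicate 1, but 9.75 and 10.82 on replicates 2 and 3. Apoc3 read 4.24 and 5.38 on the YFP+ arrays and 4.66 on replicate 1, against 10.28 and 10.12 on replicates 2 and 3. Apoa2 had the same order, with 11.50 and 11.55 on replicates 2 and 3. Hamp, the iron hormone hepcidin, followed the same order with 4.75 and 5.57, then 6.31, then 8.93 and 9.43. None of the 4 passed (adjusted p = 0.278, 0.384, 0.296 and 0.188). Cyp2e1, a drug-metabolising enzyme of hepatocytes, had another order: 5.26 and 5.1999 on the YFP+ arrays against 10.13, 6.43 and 7.64, with replicate 1 the highest. Whether hepatocyte RNA in the sorted fractions has a part in these levels was not tested.

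Some regulators and enzymes of hepatic metabolism were among the genes called higher. Mlxipl, the glucose-responsive factor ChREBP, read 8.35 and 8.70 against 5.96, 5.9985 and 5.65. Nr1i2, the pregnane X receptor, read 6.88 and 7.65 against 5.06, 4.48 and 4.87, and Tmprss6, a protease that restrains hepcidin, 7.81 and 8.13 against 5.63, 5.30 and 5.66. Gsta3, a glutathione transferase, rose by 2.67 ± 0.26 and Atp7b, the copper exporter of bile secretion, by 2.57 ± 0.34. These 5, picked after their values were seen, lay at least 1 log2 unit lower on all 3 YFP- arrays than on either YFP+ array. Hnf4a, a nuclear receptor of hepatocyte identity chosen in the same way, read 9.22 and 8.58 against 7.09, 5.72 and 6.54 and missed the threshold (adjusted p = 0.0648).

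**Figure D5:**
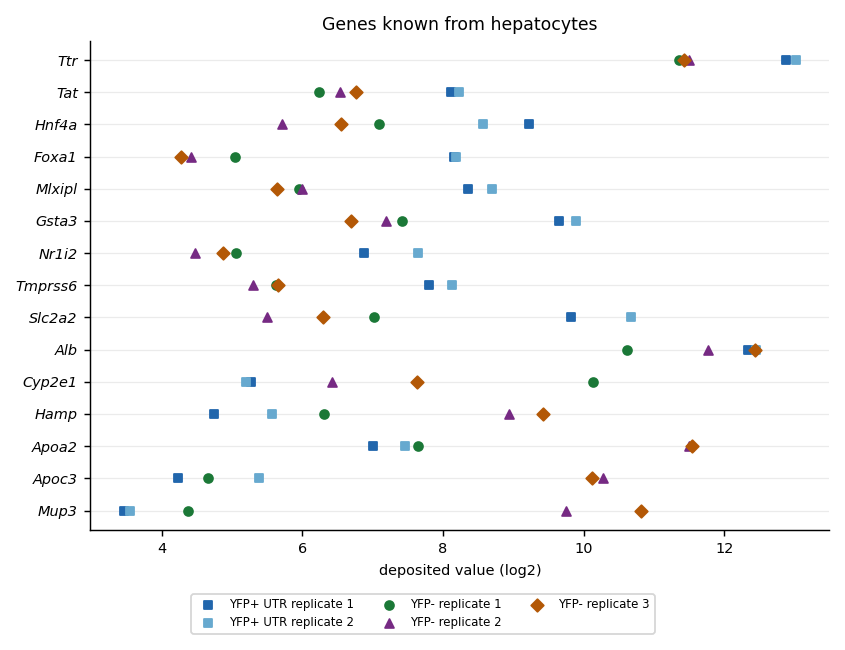
Deposited log2 values of 15 genes known from hepatocytes, with squares for the 2 YFP+ UTR arrays and a circle, triangle and diamond for YFP- replicates 1, 2 and 3. The 15 were picked for display and do not stand for the hepatocyte list, in which 24 of 35 differences were negative. From Ttr to Slc2a2 the YFP+ arrays are the highest, and from Hamp to Mup3 replicates 2 and 3 are far to the right of the YFP+ arrays.

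Among the falls, sinusoidal endothelial genes had the most calls of any list: 19 of 28 were called lower, beside 1.73% of all genes, 26 were separated (3.24% of all genes) and the median was -4.50. Dnase1l3, a secreted DNase of sinusoids and macrophages, read 4.16 and 5.04 against 11.92, 10.61 and 10.74, and Clec4g, a sinusoidal lectin, 6.501 and 6.73 against 12.82, 11.87 and 12.11. Ptprb and Stab2, an endothelial phosphatase and a hyaluronan receptor, fell by 5.85 and 5.48. YFP- replicate 1 was the highest array for each of these 4. The list's median was -5.70 against replicate 1, -3.87 against replicate 2 and -4.12 against replicate 3. The distance from the YFP+ arrays was thus largest for replicate 1, while for duct genes it was smallest there (2.19). Replicate 1 had the highest mean level of the YFP- arrays for both lists. It was 10.78 against 9.11 and 9.30 for the sinusoidal list, and 8.20 against 5.54 and 5.25 for duct genes.

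Outside that list the 20 largest falls were genes of innate immunity, leukocytes and endothelium. Ifi203, Ifi204, Ifi207 and Mndal, DNA-sensing proteins of the interferon-inducible p200 family, fell by 6.86, 6.73, 5.85 and 6.35. Ifi203 read 3.95 and 3.62 on the YFP+ arrays and 10.42, 10.72 and 10.79 on the YFP- arrays, and the 3 YFP- arrays were nearly equal. These family members are near-identical copies, so that the probes may not tell them apart and their single values are uncertain. All 4 lay below the lower quartile of both YFP+ arrays (4.30 and 4.33), near the low end of the scale, so the size of these folds is uncertain. In all, 34 of the 402 genes called lower lay there, among them Serpina3f, Ctla2b and Msr1, beside 5360 of all 23185 genes.

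Srgn, the core protein of secretory granules in blood and endothelial cells, fell evenly: 6.22 and 6.06 against 12.0002, 12.46 and 11.95, a difference of -5.996 ± 0.21 (adjusted p = 0.00989). Fli1, an ETS factor of blood and endothelium, was as even, with 4.68 and 4.84 against 10.01, 10.15 and 9.57. Most others of the 20 varied by array. Calcrl and Adgrl4, receptors of endothelium, were highest on replicate 1, where Calcrl read 11.86 against 10.17 and 10.56. Rgs1, Gpr65, Lilrb4a and Bcl2a1a, genes of leukocytes, were lowest there, with Rgs1 at 10.54 against 12.06 and 12.35. Bcl2a1a has close copies and Gimap4 has relatives in its family, and both values are uncertain. Mrc1, the mannose receptor of sinusoids and macrophages, read 11.95, 10.45 and 11.88 on the YFP- arrays and 5.39 and 5.70 on the YFP+ arrays. Cd55, a complement inhibitor, fell by 5.85.

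Kupffer cell genes were called lower in 6 of 23 cases and separated in 13, beside 1.73% and 3.24% of all genes. The 6 are not all particular to Kupffer cells, since Ptprc is pan-leukocyte and Mrc1 is also a gene of sinusoids. Besides Mrc1 and Ptprc, C1qa and C1qb, of the complement initiator, read 7.25 and 6.94 against 10.21, 9.96 and 11.57, and 8.62 and 8.22 against 11.54, 11.22 and 12.38. Cd68, of macrophage lysosomes, fell by 3.67 ± 0.58. Clec4f, the Kupffer lectin, chosen after its values were seen, read 6.69 and 6.56 against 8.45, 8.17 and 12.10 and did not pass. C1qb and Cd68 lay above the median of the YFP+ arrays, while Cd163 and Timd4 did not. These macrophage transcripts were thus lower on the YFP+ arrays than on the YFP- arrays, but not all lay at the floor of the YFP+ arrays. Against the same 1.73%, monocyte genes had 1 of 18 called lower (Ms4a6c, by 5.63) and dendritic cell genes 4 of 18 (Irf8, Clec9a, Bst2 and Tcf4, by 4.14, 3.87, 1.93 and 1.83).

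Neutrophil, B cell, stellate and fibroblast, mesothelial, and megakaryocyte, erythroid and mast cell genes had no call in either direction in the fit of 5 arrays. Among all genes of that fit 4945 had an unadjusted p under 0.05, and the fit of 11 arrays called 5 of 18, 3 of 19, 2 of 32, 0 of 12 and 3 of 15 of these lists lower, beside 8.46% of all genes. It called 3 stellate and fibroblast and 3 mesothelial genes higher, beside 10.4% of all genes. The stellate and fibroblast counts are thus near or under the share of all genes in both directions. S100a8 and S100a9, of neutrophil granules, read 9.63, 12.33 and 8.10, and 10.20, 12.36 and 9.04, on the YFP- arrays against 4.77 and 5.00, and 5.19 and 5.96, on the YFP+ arrays. Cd79b and Jchain, of B cells and plasma cells, were highest on replicate 2 (11.24 and 10.17). Dcn, a fibroblast proteoglycan, read 5.45 and 5.69 against 11.11, 8.42 and 9.13 with replicate 1 highest, whereas Rgs5, known from pericytes, was higher on the YFP+ arrays (10.11 and 9.79 against 8.36, 5.19 and 7.20). Gpm6a, Cd200 and Msln of the mesothelial list read highest on a YFP+ array without passing.

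Blood and endothelial transcription factors fell in 5 of 33 cases (1.73% of all genes): Fli1, Spi1, Maf, Klf2 and Prdm1. Spi1, which encodes PU.1, the master factor of myeloid cells, read 6.53 and 6.43 against 9.91, 11.36 and 11.80. Klf2, the shear stress factor of endothelium, read 6.96 and 6.98 against 9.55, 10.34 and 10.71. Maf and Prdm1 fell by 3.55 ± 0.46 and 2.80 ± 0.29. Hhex was the exception and rose.

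Genes of pattern recognition and interferon response fell in 11 of 44 cases and rose in 1, beside 1.73% and 2.28% of all genes. Casp1, of the inflammasome, read 4.05 and 4.71 against 9.47, 8.90 and 10.23, and Tlr7, the sensor of single-stranded RNA, 4.78 and 4.63 against 8.62, 10.04 and 10.85. The exception was Tlr5, the receptor for bacterial flagellin, which read 7.93 and 8.02 on the YFP+ arrays and 5.46, 5.15 and 5.41 on the YFP- arrays and rose by 2.63 ± 0.16 (adjusted p = 0.0188). All 3 YFP- arrays were alike and low for Tlr5.

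Chemokines and cytokines fell in 7 of 56 cases and rose in 3, beside the same shares. Ccl3 and Ccl4, which attract monocytes and T cells, read 5.17 and 5.05 against 10.64, 12.31 and 11.99, and 6.36 and 6.10 against 10.69, 12.13 and 11.47. Il1a fell by 5.95, Cxcl2 by 4.47 and Cxcl9, an interferon-gamma target, by 4.13 ± 0.15. The genes that rose were Cxcl5, Il17re, a receptor for epithelial interleukin 17C, with 7.87 and 8.41 against 5.44, 4.46 and 4.70, and Tnfrsf19, a TNF receptor of epithelial stem cells, with 8.85 and 9.09 against 6.39, 4.85 and 5.55.

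Antigen presentation genes fell in 4 of 28 cases (1.73% of all genes), and all 4 still lay above the median of the YFP+ arrays. Cd74, the invariant chain of MHC class II, read 11.31 and 10.93 against 12.54, 12.84 and 12.73. H2-Ab1 read 9.42 and 10.10 against 12.003, 12.29 and 11.51, and H2-Aa and H2-Eb1, the other class II chains, 7.67 and 7.63 against 11.32, 11.97 and 10.38, and 7.81 and 7.98 against 10.70, 11.73 and 10.90. The fall of Cd74 was therefore small (1.58 ± 0.19) beside that of Ptprc. Scavenging and lysosome genes fell in 9 of 39 cases (again beside 1.73%), with Msr1, Fcer1g and Laptm5 lower by 5.81, 4.72 and 4.27, and rose in 1, Vldlr, a lipoprotein receptor, by 1.59 ± 0.24.

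Cell cycle genes fell in 4 of 38 cases, beside 1.73% of all genes, and rose in none. Cdk1, the mitotic kinase, read 5.40 and 5.26 on the YFP+ arrays and 7.82, 7.92 and 7.88 on the YFP- arrays, a difference of -2.54 ± 0.13. Mcm3, of the replication helicase, fell by 1.82, Cenpa, of the centromere, by 2.04, and Bub1, of the spindle checkpoint, by 1.26. The YFP- arrays were close to each other for Cdk1 although they differed in cell mixture. Ccnd1, a G1 cyclin chosen after its values were seen, was higher in YFP+ cells (11.20 and 11.03 against 10.10, 9.81 and 9.16) without passing (adjusted p = 0.0834).

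Imprinted and fetal genes showed no call in either direction among 21 in the fit of 5 arrays, beside 2.28% of all genes higher and 1.73% lower. The fit of 11 arrays called 2 higher and 1 lower, near or under the 10.4% and 8.46% of all genes. Peg3 read 9.16 and 9.40 against 6.84, 5.03 and 5.18, and Grb10 9.16 and 8.96 against 8.72, 6.46 and 6.21, both with replicate 1 above the other YFP- arrays. Mest had the opposite order, with 4.26 and 4.32 against 8.65, 6.70 and 7.24. None of the 3 passed (adjusted p = 0.054, 0.283 and 0.0635).

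Genes of microRNAs gave no call among 52 in the fit of 5 arrays, beside 2.28% of all genes higher and 1.73% lower. The fit of 11 arrays called 3 higher and 1 lower, both under the 10.4% and 8.46% of all genes. Of the 52, 29 lay below the lower quartile of both YFP+ arrays, beside 5360 of all 23185 genes. The array reads the primary transcript or host region, not the mature strand. The largest positive and negative differences were Mir24-1, with 7.16 and 7.59 against 5.66, 6.26 and 5.67 (adjusted p = 0.0581), and Mir142, a blood cell miRNA, with 4.39 and 4.25 against 4.03, 8.56 and 6.97 (adjusted p = 0.445). Mir142 was high only on YFP- replicates 2 and 3, those with more leukocyte signal. Their main mature strands are shown, from RefSeq GRCm38.p6, 5′ to 3′, with the seed (bases 2 to 8) in capitals, because targets are read from it. The seeds are not shared.
mmu-miR-24-3p: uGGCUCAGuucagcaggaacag
mmu-miR-142a-3p: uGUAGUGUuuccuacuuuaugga

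Promoters were read for sites of PU.1 and of the family of Grhl2, because the genes of both factors were called. The TEAD site was read as well, although no TEAD factor is named above as called. RefSeq promoters of GRCm38.p6, from 250 bases before to 50 after the start, were given for 17452 of the genes tested, and both strands were searched. The PU.1 core GAGGAAGT, which holds the GGAA shared by all ETS factors, Fli1 included, was present in 24 of 306 promoters of genes called lower (7.84%) and in 10.8% of 574 promoters of genes separated downwards. It was present in 2.21% of 408 promoters of genes called higher, 2.66% of 677 promoters of genes separated upwards and 3.47% of all. The TEAD site ACATTCC was present in 4.66% of promoters of genes called higher, 3.59% of those called lower and 3.99% of all. For genes separated upwards and downwards the share was 5.47% and 3.66%. The site AACCGGTT of the Grainyhead family, to which Grhl2 belongs, was present in 1 of 408 (0.245%) against 0.206% of all. Among genes separated upwards it was present in 0 of 677. A match is a description of letters and shows no binding, and no test was made.

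Of the 24 called genes with the core, 5 are shown with 9 bases on each side, on the strand of the gene, with the match in capitals as written or as its reverse complement. They were chosen after their values were seen, as genes of myeloid, blood or endothelial cells. Slamf9 is a receptor of macrophages, Csf2rb2 a cytokine receptor subunit, Inpp5d the lipid phosphatase SHIP of blood cells, Ctss a lysosomal protease of antigen-presenting cells and Eng the endothelial co-receptor endoglin. Their differences were -3.79, -4.54, -3.73, -3.60 and -5.43. The windows are chr1:172475343-172475368 (+), chr15:78305678-78305703 (-), chr1:87620283-87620308 (+), chr3:95526775-95526800 (+) and chr2:32646533-32646558 (+). All 5 lie close to the annotated start.
Slamf9: atgtgtacaGAGGAAGTtggagggag
Csf2rb2: gcactggcaACTTCCTCaatctgctc
Inpp5d: ttctataatGAGGAAGTtctgtgcag
Ctss: tgaaagttcACTTCCTCattgtggat
Eng: gcctgtggcACTTCCTCtactcgcct

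Among the largest rises the TEAD site stood in the promoters of Ccn1 and Slc34a2, shown in the same way because Ccn1 is a known target of YAP and TEAD. The windows are chr3:145650074-145650098 (-) and chr5:53049252-53049276 (+). The site also stood in the promoter of Gimap4, which fell, so it does not mark one direction.
Ccn1: cgccaaccaACATTCCtgagatgtt
Slc34a2: ggcggtcctGGAATGTgcgaggggc

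The YFP+ cells of the diets, which share the label but not the treatment, are given as ranges over their 6 arrays for the genes above that turn on the label. Sox9 ran from 11.21 to 11.54, Krt19 from 10.11 to 10.58 and Foxa1 from 7.9998 to 8.55, and Pecam1 from 4.79 to 5.17. These ranges include or adjoin the untreated YFP+ values and lie apart from the YFP- arrays. Slc2a2 ran from 8.22 to 9.68, below both untreated YFP+ arrays, and Cdk1 from 5.41 to 7.72, from the untreated YFP+ level almost to that of the YFP- arrays. Cxcl2 ran from 6.94 to 10.81. The diets were not tested against the untreated cells here, and the positions of these ranges are descriptions.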

How the data were processed

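Arrays of 2 YFP+ UTR and 3 YFP- samples were compared. The values are the log2 values that the authors deposited, 1 per feature and array; base 2 was inferred from their range, while the steps before deposit (background correction, normalization, probe summary) are not stated in the labels. Of 25206 features 23185 had 1 gene symbol in the platform annotation, 0 several and 2021 none; all 23185 matched RefSeq (GRCm38.p6). Array medians were 5.63 to 5.74, and precision is limited by how few arrays there are. The 2 groups were compared by limma 3.58.1 under R 4.3.3, two-sided, using lmFit and eBayes with no intensity trend (3 residual degrees of freedom) and Benjamini-Hochberg adjustment over all named genes.

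The members, the 35 gene lists (1155 of 1219 symbols measured; some genes are not reported here) and the naming rule were chosen with earlier results of these data known. Named genes are the 20 largest rises and 20 largest falls among non-overlapping called genes outside the standard lists and predicted genes, up to 5 called members of each list and direction or 3 uncalled ones, the 12 highest on each YFP- array, the 12 largest rises with a flat YFP- replicate 1, and 5 markers. Others are stated as chosen after their values were seen.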

Additional observations from a re-analysis of the deposited data

How the results depend on the processing

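The 5-array test rested on few arrays. Against 931 genes called (529 higher, 402 lower), a spread shared by all 11 arrays gave 4373 (2412, 1961), array weights 2392 (1375, 1017), and leaving out dim genes 801 higher. Leaving out 1 array gave 0 to 2194 calls (0 to 1208 higher, 0 to 986 lower), with 0 without either YFP+ array or YFP- replicate 3, and 343 (154, 189) without YFP- replicate 2. A left-out YFP+ array leaves 1, assumed to vary like the YFP- arrays. In 11 arrays, leaving out 1 of the 5 gave 2306 to 5817, lowest without YFP+ replicate 2 and 2432 without YFP+ replicate 1; those alternatives were chosen after seeing the data. The intensity trend, quantile normalization and unnamed features kept all counts within 1.5 times (766 to 1039 calls), and quantile normalization moved the median of all genes by 0.05.

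Replicate numbers are shared by the groups, and same-numbered arrays deviated together only weakly (r of 0.08 and 0.02). The deviations of the 2 YFP+ arrays mirror each other, and those of the YFP- arrays carry their cell mixtures. These values therefore cannot show whether a number marks a pairing, and no label says so. With a replicate block the 5 arrays gave 0 calls in limma (3809 genes at an unadjusted p under 0.05, none below an adjusted p of 0.207), and the 11 arrays 3696 (2050, 1646).

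Of 235 named genes 148 were called, and none of these reversed; 10 lost the call with the intensity trend, 4 with quantile normalization, 8 without YFP- replicate 1, 97 without YFP- replicate 2 and 148 under each setting with 0 calls. Of 35 list medians, 16 moved by more than their members' median SE with dim genes left out, 16 without YFP- replicate 1, 16 without YFP- replicate 2 and 10 without YFP- replicate 3. Without YFP- replicate 1 some uncalled genes turned positive, and over the YFP- arrays left out the Fmod difference ran from -2.23 to 0.19, the Vegfd difference from -1.71 to 0.55 and the Ccl19 difference from -2.21 to 0.0576. The Cd3e difference ran from -3.10 to 0.0485, positive without YFP- replicate 2. The 10 calls lost with the intensity trend were those of Btc, Fut8, Fzd5, Ift81, Pdgfb, Slc6a9, Srebf1, St6gal1, Syt1 and Wnt4. The number of genes separated from every YFP- array by 1 log2 unit was 1642, and gaps of 0.5 and 2 log2 units gave 3148 and 590.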
